A study of Mus musculus with 49 samples.

Results

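CD8+ T cells whose STAT5B cannot be phosphorylated at tyrosine 699 were compared with WT cells 4 hr after the addition of IL-2. The comparison held 6 of the 49 samples of the series, all of them RNA-seq libraries: 3 of *Stat5b* KI cells and 3 of WT cells. Members were taken from the sample labels, which name the *Stat5b* line, the genotype, and the time. The KI mice were homozygous for the Y699F allele, in which tyrosine 699 of STAT5B is replaced by phenylalanine in every cell of the body from the zygote on. The line was made with CRISPR/Cas9 in B6D2F1 zygotes and backcrossed to C57BL/6J, and the WT mice were littermates aged 8 to 24 weeks. The study used both sexes, but all 6 libraries held *Xist*, the RNA of the inactive X chromosome of female cells, at an RPKM (read count scaled to transcript length and to the mapped reads of the library) of 32.7 to 35.3, and 4 Y-linked genes at 0.0218 or less. Splenic CD8+ T cells were isolated with a magnetic kit and cultured in recombinant human IL-2 at 500 IU/ml. Libraries of the same line at 0, 24, and 48 hr and libraries of the matching *Stat5a* KI line were used for reference, and the fit across all genes rested on 47 libraries in 16 groups. Whether each library came from 1 mouse or from a pool is not given in the sources used here. The total count over the longest transcript of each gene was 46972324, 42973592, and 38484769 reads in the WT libraries at 4 hr and 42110952, 42224048, and 39269387 reads in the KI libraries.

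IL-2 is the growth factor of activated T cells. It binds a receptor made of IL2RA, IL2RB, and the common γ chain IL2RG, the kinases JAK1 and JAK3 then phosphorylate tyrosines on the receptor, and STAT5A and STAT5B dock there and are phosphorylated on a single tyrosine near the C terminus. The phosphotyrosine of one STAT5 is held by the SH2 domain of another, and the dimer moves to the nucleus and binds DNA at a palindrome called a GAS motif. Genes that STAT5 is known to drive in T cells include the feedback inhibitors *Cish* and *Socs1*, the survival gene *Bcl2*, receptor chains, D-type cyclins, and effector genes such as *Gzmb*. In the KI mice STAT5A kept its tyrosine, so the comparison asks how the first hours of the response differ when only STAT5B lacks it. The paper proposes that the mutated STAT5B may also hinder the intact STAT5A, as a dominant negative. The comparison cannot tell such interference from the loss of STAT5B phosphorylation alone, and it was not tested.

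The allele is shown first, because it defines the KI group. *Stat5b* lies on the minus strand at chr11:100780731-100859004 (GRCm38), and codon 699 is in exon 17 of 19 of NM_011489.3. The guide matched chr11:100784292-100784311, with 13 of its bases in that exon and 7 in the adjoining intron, and is printed 5′ to 3′ with its PAM in capitals.
Guide with PAM: ccggcagcgaaagcagctgaCGG
The same stretch of 63 bases, chr11:100784262-100784324 on the minus strand, is given as in the reference and as in the repair oligonucleotide, with the bases that differ in capitals.
Reference: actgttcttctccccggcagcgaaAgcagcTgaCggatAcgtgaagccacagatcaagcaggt
Repair oligonucleotide: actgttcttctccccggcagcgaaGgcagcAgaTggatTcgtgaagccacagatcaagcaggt
Counted from 1 at the 5′ end of the printed stretch, the substitutions were A25G, T31A, C34T, and A39T. The last of these turns codon 699 from TAC, for tyrosine, into TTC, for phenylalanine, and C34T lies in the PAM.

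GAS motifs near the start sites of early IL-2 genes lower in KI cells are shown next, because the levels of those genes are what the comparison turns on. The motif TTCNNNGAA, which reads the same on both strands, was searched in the RefSeq windows from 250 bases before to 50 bases after a start site (GRCm38.p6). It was present for 2582 of 27025 genes with a window (9.55%), for 961 of the 11287 genes tested here that had one (8.51%), for 11.3% of 1138 early IL-2 genes, and for 13 of 54 early IL-2 genes lower in KI cells (24.1%), 54 of 78 having a window. Among genes higher in KI cells it was present for 7.37% of 1018. A match is a description of these letters, not evidence of binding. For some of the 13 genes, not all, the motif with up to 10 bases on either side is printed on the strand of the gene, with the motif in capitals.
*Cish*, chr9:107296649-107296677, plus strand: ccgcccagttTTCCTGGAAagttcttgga
*Cish*, chr9:107296660-107296688, plus strand: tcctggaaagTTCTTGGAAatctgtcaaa
*Lta*, chr17:35205485-35205513, minus strand: accatcactcTTCAGGGAAccaggcttcc
*Lta*, chr17:35205349-35205377, minus strand: ccgactccctTTCCCAGAAcgcagtagtc
*Il12rb2*, chr6:67376293-67376321, minus strand: gttcccttttTTCTCAGAAccgcactaag
*Il18r1*, chr1:40465777-40465805, plus strand: tcggggttagTTCTGGGAActgtggagct
*Il18r1*, chr1:40465844-40465872, plus strand: agtacaggtcTTCCCAGAActgaaagctt
*Tnfrsf18*, chr4:156026213-156026241, plus strand: tgctctacacTTCACAGAAggcctttaca
*Gzmb*, chr14:56262285-56262307, minus strand: ggcaggagttTTCATAGAAagca
Of the 13 genes, 4 held 2 or more copies, and *Cish*, *Lta*, and *Il18r1* were among them.

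*Stat5b* mRNA itself overlapped between the genotypes at 4 hr. Its RPKM was 49.6, 51.2, and 47.7 in WT and 52.5, 51.8, and 48.6 in KI cells at that time. At 0 hr it was 28.3, 29.7, and 29.5 in WT and 26.8, 27.2, and 27.0 in KI cells, and there the ranges did not overlap. The fitted log2 difference at 4 hr was -0.07 ± 0.113 (SE, n = 3 per group, edgeR adjusted p = 0.678). A substitution of single bases need not change the read count, so this level checks neither the allele nor the labels. *Stat5a*, the paralog whose tyrosine was intact, had an RPKM of 21.0, 21.2, and 19.9 in WT and 28.6, 31.1, and 25.2 in KI cells, a log2 difference of 0.34 ± 0.0756 (edgeR adjusted p = 0.000818) that was below the fold threshold.

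The 6 libraries separated by genotype. On the first principal component, which held 79.6% of the variance, the KI libraries lay at 25.5, 25.6, and 27.7 and the WT libraries at -26.0, -27.5, and -25.2. The T cell identity of the samples was clear from their markers: the summed RPKM of 9 CD8 T cell genes was 1820, 1980, and 2060 in WT and 1630, 1650, and 1540 in KI cells. Only *Thy1* among the 9 was called lower by the rule given below, beside 1.23% of all genes. By adjusted p alone 4 of the 9 were lower and 1 higher, where 12.8% and 14.5% of all genes were. The KI libraries nevertheless carried more RNA of other spleen cells. The summed RPKM of 11 B cell genes was 52.0, 46.8, and 60.4 in WT and 222, 246, and 232 in KI libraries, and the same sum was higher in KI libraries at 0 hr too, at 261, 269, and 266 against 66.2, 64.1, and 74.0. Erythroid genes summed to 34.8, 56.5, and 91.7 in WT and to 823, 338, and 553 in KI libraries, and macrophage genes to 16.1, 14, and 16.5 against 64.1, 51.2, and 47.3. No marker was at 0 in all 6 libraries. In bulk samples, fewer cells of a type and less RNA per cell cannot be told apart, and the part of these cells in the differences below was not tested beyond the comparison with 0 hr, where the same surplus was present. The paper found fewer memory-phenotype CD8+ T cells with high CD122 in KI mice by flow cytometry. It names such cells as the main ones to proliferate to high-dose IL-2. A smaller share of responding cells could lower a gene at 4 hr with no difference at 0 hr. The comparison with 0 hr cannot tell this from a weaker response per cell, and it was not tested.

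**Figure D1:**
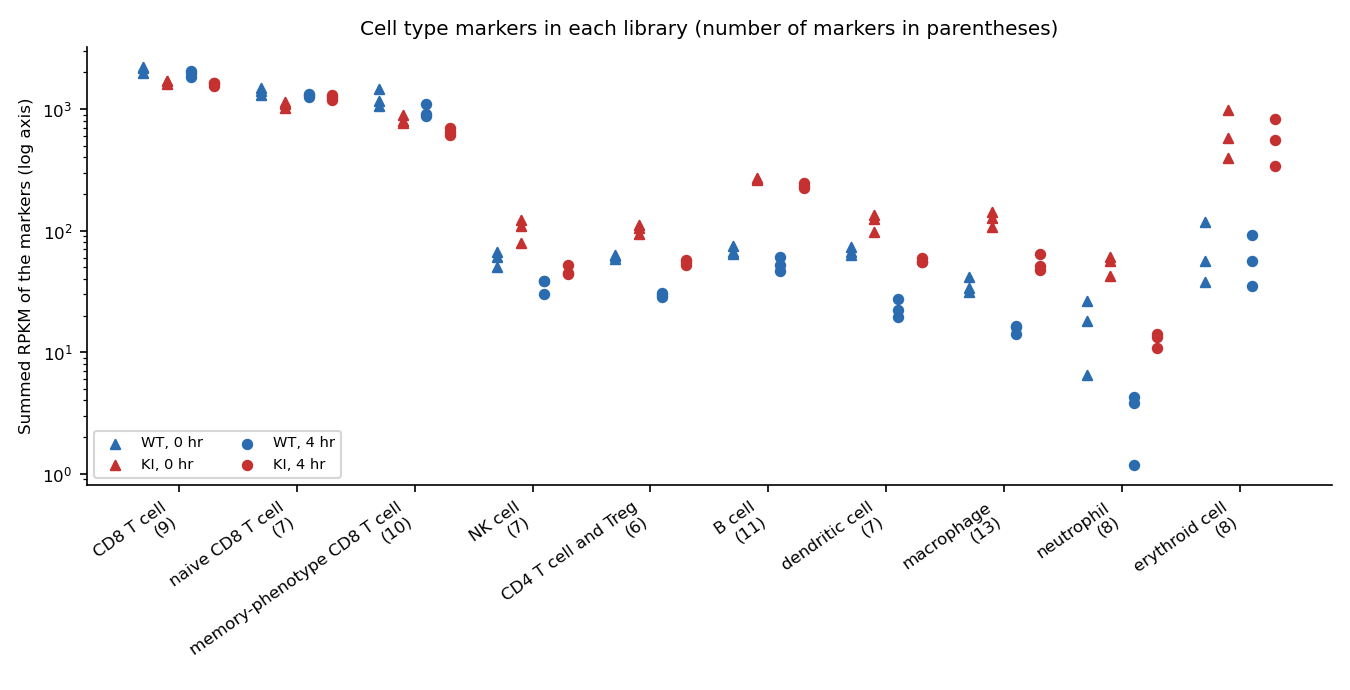
Summed RPKM of cell type marker lists (log axis) in each library of the *Stat5b* line at 0 and 4 hr, with 1 point per library for WT and KI cells. B cell, macrophage, and erythroid sums were higher in all KI libraries at both times. CD8 T cell sums differed less and were lower in all KI libraries (1820 to 2060 in WT and 1540 to 1650 in KI libraries at 4 hr).

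A gene was called where its edgeR adjusted p did not exceed 0.05 and its fold was 2 or more. Of 15566 genes tested, the KI libraries at 4 hr had 191 with a lower level (1.23%) and 1432 with a higher one (9.2%). The median log2 difference over all genes was -0.026. Many of the differences were already there without IL-2. At 0 hr 94 genes were lower (0.604%) and 1148 higher (7.38%). Of the 1432 genes higher at 4 hr, 830 were also higher at 0 hr, which is 58.0% of the 4 hr list and 72.3% of the 0 hr list. Of the 191 genes lower at 4 hr, 61 were lower at both times, 31.9% of the 4 hr list and 64.9% of the 0 hr list, 66.5% of the 4 hr list were not called at 0 hr, and 3 were higher at 0 hr. The difference between the genotype effect at 4 hr and that at 0 hr was tested directly for every gene. It was lower at 4 hr for 80 genes (0.514%) and higher for 15 (0.0964%). With libraries of the same number treated as pairs within each genotype, these counts were 99 and 30. They were 32 and 8 with all 48 libraries in the fit, and 44 and 4 with limma on log2(RPKM + 1). Of the 80 genes, 54 were among the 191 lower in KI cells at 4 hr.

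To ask which of these genes respond early to IL-2, the response was taken from libraries that the KI comparison does not use, the WT libraries of the *Stat5a* line. In those, 1563 genes were higher at 4 hr than at 0 hr (10% of genes tested) and are called early IL-2 genes here. The series holds no library cultured for 4 hr without IL-2, so effects of culture and time cannot be told apart from those of IL-2. Wherever a rise, fall, or change with IL-2 is given, it means 4 hr against 0 hr. In KI against WT cells of the *Stat5b* line at 4 hr, 78 of them were lower (4.99%) and 89 higher (5.69%), and their median log2 difference was 0.05. One library of that WT group (replicate 2) had a low share of mapped reads in the table, 44.86%. Without it, 989 genes were early IL-2 genes, and 81 of them were lower (8.19%) and 39 higher (3.94%), with a median of -0.12, so the sign of the median turned with this library. At higher expression the counts differed: of 443 early IL-2 genes with a mean RPKM of at least 5, 41 were lower (9.26%) and 5 higher (1.13%), beside 80 (0.994%) and 220 (2.73%) of all 8049 genes at that level. For 1396 early IL-2 genes no difference was called, which need not mean that the difference was small. Of the 1563 genes, 687 were also called higher with IL-2 in *Stat5b*-line WT cells and 546 in KI cells, with a median log2 change of 0.97 and 0.79, respectively. Over all genes tested, 908 were higher (5.83%) and 1540 lower (9.89%) at 4 hr than at 0 hr in WT cells of the line. In KI cells 766 were higher (4.92%) and 1378 lower (8.85%).

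The 78 early IL-2 genes that were lower in KI cells were the main object of the comparison. Their median log2 difference was -1.50. At 0 hr 62 of them were not called, 13 were lower, and 3 were higher. For 42 of the 78 the difference from the genotype effect at 0 hr was itself called, as it was for 0.514% of all genes, but the same 4 hr libraries had chosen the 78, which favours a high count. In WT cells of the line their median log2 change with IL-2 was 1.90, and in KI cells 0.61, which is a description for the same reason. They included cytokines, receptors, feedback inhibitors, a CDK, a survival gene, and *Myc*.

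**Figure D2:**
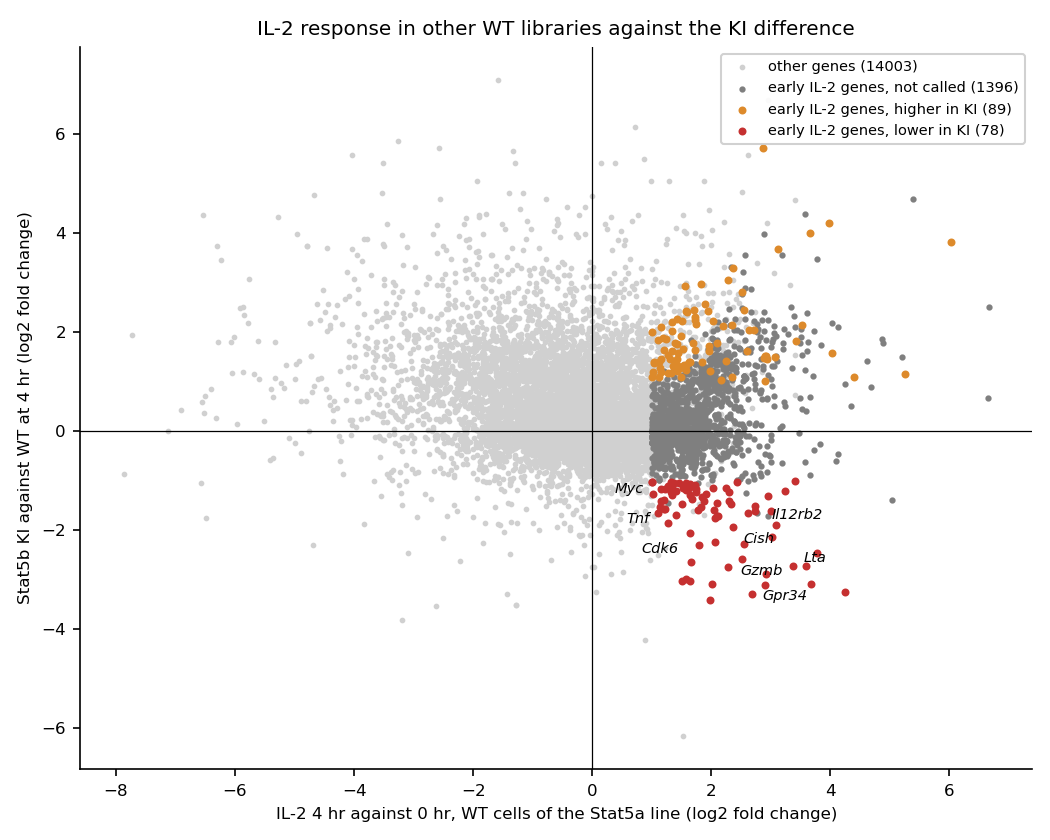
Each point is 1 of the genes tested: the horizontal axis is the log2 change with IL-2 (4 hr against 0 hr) in *Stat5a*-line WT cells and the vertical axis the log2 difference of *Stat5b* KI and WT cells at 4 hr. The 78 early IL-2 genes lower in KI cells and the 89 higher ones are coloured. The other early IL-2 genes, 1396 in number, were not called and are in grey.

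Cytokines and TNF-family ligands are taken first. Of 19 tested, 5 were lower in KI cells (*Lta*, *Tnf*, *Fasl*, *Osm*, and *Tnfsf8*) and 3 were higher, beside 1.23% and 9.2% of all genes. The median log2 difference was -0.30 beside -0.03 for all genes, and was -0.08 without WT replicate 3, -0.15 without KI replicate 3, and -0.84 for the 10 members with an RPKM of at least 5. *Lta* (NM_010735) encodes lymphotoxin α, a TNF-family cytokine made by lymphocytes. Its RPKM at 4 hr was 50.2, 52.6, and 50.8 in WT and 8.10, 8.05, and 8.80 in KI cells. At 0 hr it was 3.49, 3.41, and 3.46 in WT and 3.61, 4.54, and 3.77 in KI cells. Both genotypes thus began at a similar low level, and the WT libraries then lay far above the KI libraries with no overlap. The log2 difference at 4 hr was -2.73 ± 0.121 (edgeR adjusted p = 7.98e-19), and the difference from 0 hr was -2.87 (adjusted p = 3.07e-14). The short RNA gene *Mir6974*, lower by -3.24 on the log2 scale, lies inside *Lta* and shares its reads.

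*Tnf*, the neighbour of *Lta* and the prototype of the family, had an RPKM of 19.6, 22.9, and 21.7 in WT and 7.07, 6.20, and 5.98 in KI cells at 4 hr. At 0 hr it was 4.38, 3.56, and 4.91 in WT and 6.96, 7.86, and 5.67 in KI cells. KI cells therefore lay above WT cells without IL-2 and below them with it. The log2 difference at 4 hr was -1.85 ± 0.175 (edgeR adjusted p = 4.63e-10), and IL-2 changed *Tnf* by 2.14 in WT and -0.31 in KI cells on the log2 scale. *Osm* encodes oncostatin M, an IL-6-family cytokine. Its RPKM was 12, 15.7, and 17.3 in WT and 6.96, 5.26, and 5.33 in KI cells, a log2 difference of -1.47 ± 0.194 (edgeR adjusted p = 4.81e-07). *Tnfsf8*, the CD30 ligand, was at 55.2, 52.5, and 59.2 in WT and 25.2, 30.2, and 22.4 in KI cells. *Fasl*, the ligand of the death receptor FAS, was at 17.4, 19.2, and 15.4 in WT and 6.71, 6.47, and 4.44 in KI cells, and its difference from 0 hr was not called (-0.83, adjusted p = 0.355). With libraries paired by number within a genotype that difference was -0.84 (edgeR adjusted p = 0.00316), still below the fold threshold. The 3 members that were higher were *Il10*, *Tnfsf11*, and *Ccl3*. *Il10* was low in all libraries, at 0.274, 0.218, and 0.328 in WT and 1.61, 1.59, and 1.78 in KI cells, and was already higher at 0 hr. *Ifng*, which encodes interferon-γ, was not called at 4 hr (-0.36, adjusted p = 0.522). It was called at 24 hr, with a log2 difference of -3.90.

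**Figure D3:**
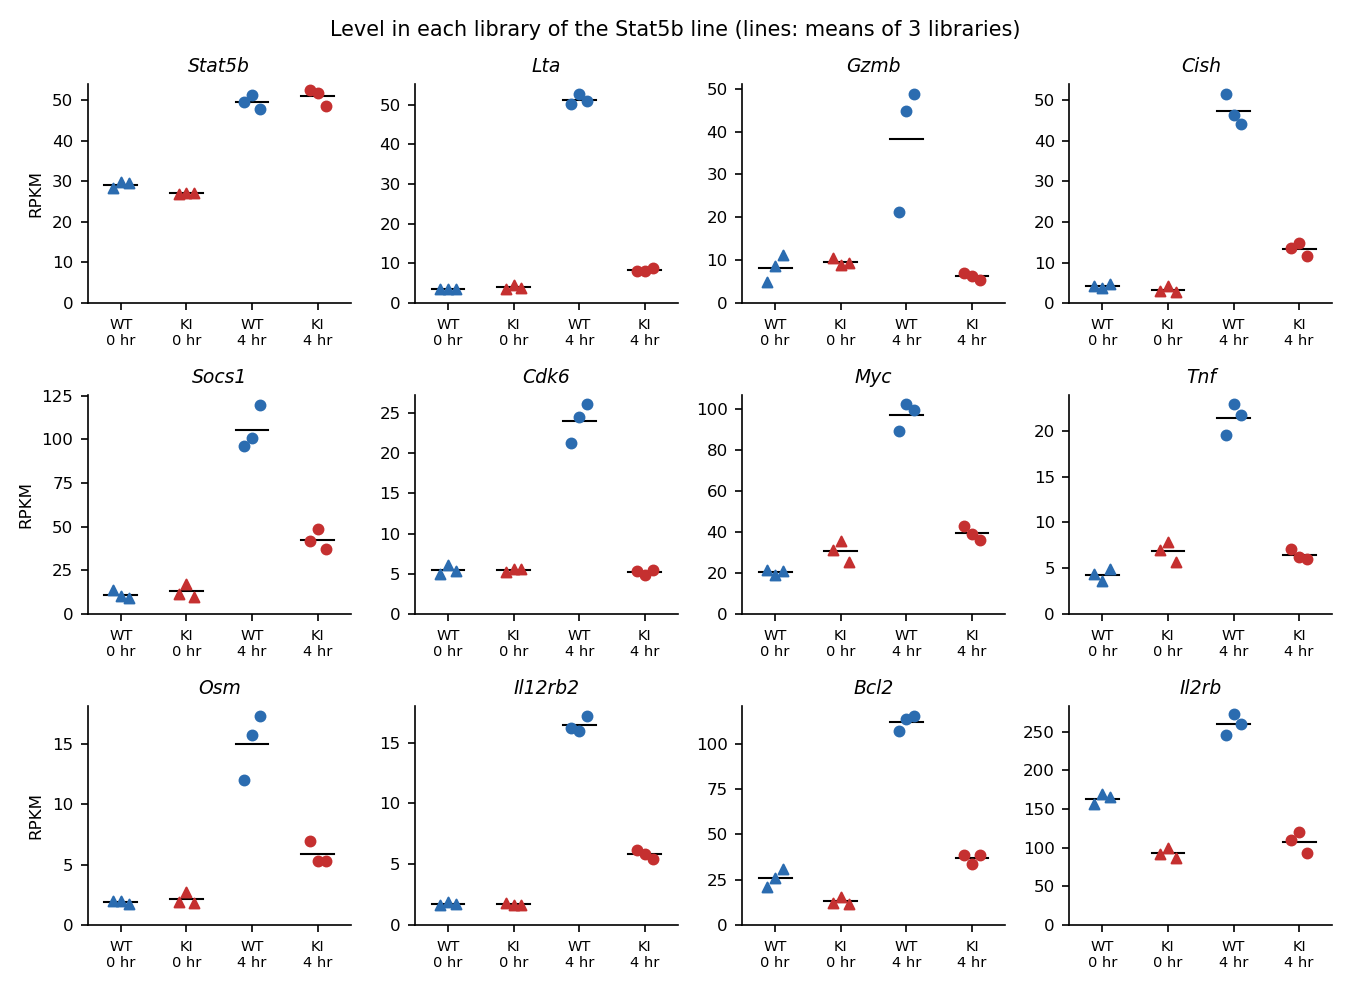
RPKM of 12 genes in each *Stat5b*-line library at 0 and 4 hr, with points for the 3 WT and 3 KI libraries and a line at each group mean. *Lta*, *Cdk6*, *Tnf*, and *Gzmb* rose with IL-2 in WT cells; in KI cells *Lta* had a log2 change of 0.84 (edgeR adjusted p = 5.45e-07), under the fold threshold, and the other 3 were not called, *Cish* and *Socs1* rose in both genotypes and less in KI cells, and the *Stat5b* libraries of both genotypes overlapped at 4 hr.

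Receptors set which other cytokines a T cell can respond to. Of 20 cytokine and TNF receptors, 5 were lower in KI cells and 1 was higher, beside 1.23% and 9.2% of all genes. *Il12rb2* encodes the signalling chain of the IL-12 receptor. Its RPKM was 16.2, 16.0, and 17.2 in WT and 6.21, 5.82, and 5.42 in KI cells at 4 hr, and 1.64, 1.86, and 1.74 against 1.83, 1.67, and 1.62 at 0 hr. KI cells thus raised the gene, but to a level well under that of WT cells. KI cells differed by -1.61 ± 0.213 on the log2 scale (edgeR adjusted p = 4.6e-07), and that from 0 hr was -1.52 (adjusted p = 0.00333). The annotation of *Il12rb2* overlaps that of *Serbp1*, and without strand their reads there cannot be told apart.

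Both chains of the IL-18 receptor were lower, and both were already lower without IL-2. *Il18r1* was at 30.5, 32.4, and 34.8 in WT and 13.7, 9.99, and 11.8 in KI cells at 4 hr, and its log2 difference was -1.57 at 4 hr and -1.26 at 0 hr. *Il18rap* differed by -1.45 at 4 hr and -1.32 at 0 hr. *Il4ra*, the α chain of the IL-4 receptor, was at 89.2, 90.6, and 92.0 in WT and 42.8, 44.8, and 35.2 in KI cells (-1.26 ± 0.141, edgeR adjusted p = 2.12e-08). It was not called at 0 hr. *Tnfrsf18*, which encodes the co-stimulatory receptor GITR, reached 195, 185, and 181 in WT and 102, 104, and 93.3 in KI cells (-1.02 ± 0.101, edgeR adjusted p = 1.39e-09). *Il1r2*, an IL-1 decoy receptor of low level here, was the 1 member that was higher (2.15).

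In the IL-2 receptor and its signalling chain only *Il2rb* was called, of 9 genes tested. It was lower, beside 1.23% of all genes, and none was higher, beside 9.2%. *Il2rb* (CD122) is the receptor chain that docks STAT5 and marks memory-phenotype CD8+ T cells. Its RPKM was 245, 273, and 260 in WT and 110, 120, and 93.6 in KI cells at 4 hr, and 156, 169, and 165 against 91.5, 99.6, and 86.2 at 0 hr. The KI libraries were below the WT libraries at both times. The log2 difference was -1.38 ± 0.159 at 4 hr (edgeR adjusted p = 3.33e-08) and -0.88 at 0 hr (adjusted p = 9.06e-05, below the fold threshold), and the difference between them was not called (-0.50, adjusted p = 0.413). *Il2ra* (CD25), the high-affinity chain, was at 11.5, 11.1, and 10.3 in WT and 7.40, 7.83, and 9.99 in KI cells. It was not called at 4 hr (-0.50 ± 0.352, adjusted p = 0.311) and was called at 24 hr, at -1.40. *Il2rg*, *Jak1*, and *Jak3* differed by -0.10, -0.08, and 0.14 on the log2 scale and were not called.

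Feedback inhibitors limit JAK and STAT signalling. Of 11 tested, 3 were lower and none was higher, beside 1.23% and 9.2% of all genes. *Cish* encodes CIS, an SH2 protein induced by STAT5 that dampens cytokine receptors. Its RPKM was 51.5, 46.3, and 44.2 in WT and 13.7, 14.9, and 11.7 in KI cells at 4 hr, from 4.21, 3.67, and 4.6 and 2.89, 4.18, and 2.63 at 0 hr. The groups overlapped at 0 hr and were far apart at 4 hr. Its log2 difference was -1.93 ± 0.215 (edgeR adjusted p = 1.66e-08), and IL-2 raised *Cish* by 3.33 in WT and 1.83 in KI cells. *Socs1*, which blocks JAK kinases, was at 96.2, 101, and 120 in WT and 41.6, 48.8, and 37.5 in KI cells, a log2 difference of -1.42 ± 0.229 (edgeR adjusted p = 1.26e-05) and of -1.57 from 0 hr (adjusted p = 0.00408). *Socs3* was at 68.0, 69.4, and 67.5 in WT and 39.8, 37.9, and 33.1 in KI cells. Its fold lay at the threshold (2.0), and its call was lost in 15 alternative settings. *Socs2* was not called (0.22).

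Survival of T cells rests in part on PIM kinases and the BCL2 family. Of 15 such genes, *Bcl2* and *Pim2* were lower, beside 1.23% of all genes, and none was higher, beside 9.2%. *Bcl2* encodes the anti-apoptotic protein on which resting and IL-2-treated T cells depend. Its RPKM was 107.03, 113.83, and 115.38 in WT and 38.4, 33.7, and 38.4 in KI cells at 4 hr, and 20.8, 25.7, and 31.0 against 11.9, 15.6, and 11.7 at 0 hr. KI cells began lower and ended lower, and the log2 difference from 0 hr was -0.67 (edgeR adjusted p = 0.0118), below the fold threshold. The log2 difference was -1.72 ± 0.114 at 4 hr (edgeR adjusted p = 7.18e-14) and -1.04 at 0 hr, and IL-2 raised the gene in both genotypes, by 1.94 in WT and 1.27 in KI cells. *Pim2*, a serine/threonine kinase that promotes survival, was at 96.7, 98.1, and 112.96 in WT and 50.3, 48.7, and 46.4 in KI cells (-1.19 ± 0.104, edgeR adjusted p = 7.06e-11). *Pim1* and *Mcl1* had values of -0.72 and -0.32 and did not pass the fold threshold.

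Among G1 cyclins, CDKs, and E2F factors, 2 of 20 were lower, beside 1.23% of all genes, and 2 were higher, which is near the 9.2% of all genes. *Cdk6* (NM_009873, chr5:3341004-3531008) encodes a kinase that pairs with D cyclins to start the cell cycle. Its RPKM was 21.2, 24.5, and 26.1 in WT and 5.33, 4.83, and 5.53 in KI cells at 4 hr. At 0 hr it was 5.00, 6.14, and 5.39 in WT and 5.20, 5.54, and 5.6 in KI cells. The KI libraries at 4 hr were thus at the level of unstimulated cells. Its value in KI against WT cells was -2.30 ± 0.112 on the log2 scale (edgeR adjusted p = 1.08e-17), and IL-2 changed *Cdk6* by 1.94 in WT and -0.28 in KI cells. *Ccnd2*, which encodes cyclin D2, was at 97.9, 113.73, and 113.80 in WT and 58.3, 52.3, and 60.8 in KI cells. Its log2 difference of -1.04 was near the threshold, the call was lost in 7 alternative settings, and the value at 0 hr was -0.64. *Ccnd1* and *E2f2* were higher by 1.51 and 1.59, at RPKM values of 1.01 to 1.41 against 3.07 to 3.85 and of 1.71 to 2.05 against 5.48 to 6.45, respectively. At 0 hr *E2f2* was already higher (1.12), and *Ccnd1* had a value of 0.96 (edgeR adjusted p = 0.0115), just under the fold threshold, with no overlap of the groups. For neither was the difference from 0 hr called.

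Transcription factors of the early and effector programs included 2 of 27 that were lower and 4 that were higher, beside 1.23% and 9.2% of all genes, with a median of 0.61. *Myc*, the driver of growth and metabolism in activated T cells, was at 89.4, 102, and 99.5 in WT and 43.0, 39.2, and 35.9 in KI cells at 4 hr. At 0 hr it was at 21.7, 19.1, and 21.2 in WT and 31.2, 35.7, and 25.2 in KI cells. The order of the genotypes was thus reversed between the times. The log2 difference was -1.42 ± 0.178 at 4 hr (edgeR adjusted p = 1.79e-07), and that from 0 hr was -1.93 (adjusted p = 4.53e-06). IL-2 changed *Myc* by 2.06 in WT and 0.13 in KI cells. *Tbx21*, which encodes T-bet, was at 10.2, 13.3, and 12 in WT and 5.68, 6.45, and 4.41 in KI cells (-1.22), and its value at 0 hr was -0.87. The members that were higher were *Zbtb32* (1.43), *Batf3* (1.46), *Mycn* (1.89, a call lost in 5 settings), and *Bcl6* (1.18). At 0 hr their values were 1.29, 1.04, 0.78, and 0.86, of which those of *Zbtb32* and *Batf3* were called. Of the 27 genes, 6 were higher at 0 hr. None was called with a higher genotype effect at 4 hr than at 0 hr, and 3, *Myc* among them, were called with a lower one, beside 0.514% of all genes.

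Of 11 cytotoxic effector genes, 3 were lower, beside 1.23% of all genes, led by *Gzmb*, which encodes granzyme B, the protease that kills target cells. Its RPKM was 21.2, 44.8, and 48.8 in WT and 6.92, 6.30, and 5.36 in KI cells at 4 hr. At 0 hr it was 4.86, 8.60, and 11.3 in WT and 10.4, 8.80, and 9.45 in KI cells. WT replicate 1 was lower than the other 2 WT libraries at both times but still lay above every KI library at 4 hr. The log2 difference was -2.74 ± 0.329 (edgeR adjusted p = 8.44e-08), and the difference from 0 hr was -2.89 (adjusted p = 0.000103). *Gzmm* and *Gzmc* passed the test, but each lost its call in 8 alternative settings, and the *Gzmm* libraries overlapped, at 2.51, 3.19, and 3.40 in WT and 1.27, 2.61, and 0.920 in KI cells. *Prf1*, which encodes perforin, was not called (-0.53).

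The largest falls among early IL-2 genes were in genes outside these lists. *Gpr34*, a G protein-coupled receptor for lysophosphatidylserine, was at 8.57, 7.27, and 10.8 in WT and 1.14, 0.885, and 0.911 in KI cells (-3.29 ± 0.288, edgeR adjusted p = 7.49e-11), and its difference from 0 hr was -2.70. The annotation of *Gpr34* overlaps that of *Cask* on the other strand, and their reads there cannot be told apart. *Syt6*, a synaptotagmin, was at 8.33, 9.52, and 6.59 against 1.26, 0.719, and 1.16, and was already lower at 0 hr (-2.08). Its difference from 0 hr was not called (adjusted p = 0.519), and was called with libraries paired by number within a genotype (-1.05, edgeR adjusted p = 0.0407). *Tmem37* and the potassium channel gene *Kcnj8* were lower by -3.02 each. *Kcnj8* differed by -2.64 at 0 hr, and *Tmem37* by -1.21. *Fam19a3* (-3.11) and *D630039A03Rik* (-2.88) were of low level, and KI replicate 2 at 0 hr stood above the other KI libraries for both (1.14 against 0.131 and 0.0866 RPKM, and 0.959 against 0.170 and 0.163). Without it, the difference of *Fam19a3* from 0 hr was -1.78 and no longer called (edgeR adjusted p = 0.453). *Drc1* (-2.99) and *4933440M02Rik* (-3.09) were as low in KI cells at 0 hr (-3.70 and -3.09). *Ecm1*, a secreted matrix protein, was singled out after its values were seen: it was at 34.3, 31.0, and 28.8 in WT and 5.88, 4.74, and 4.77 in KI cells, from 3.29, 3.25, and 2.70 and 3.24, 2.98, and 2.87 at 0 hr. Like *Lta* and *Cdk6*, it began at about the same level in both genotypes, and its log2 difference from 0 hr was -2.64 (edgeR adjusted p = 7.58e-10).

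The other early IL-2 genes that were lower had smaller differences, and of the 78 in all, 64 had a mean RPKM of at least 1. Examples among the more abundant, chosen after their values were seen, came from several processes. *Mov10*, an RNA helicase, was at 44.2, 42.2, and 45.4 in WT and 22.5, 21.0, and 21.2 in KI cells at 4 hr, and at 7.69, 6.53, and 6.01 against 6.26, 6.11, and 5.43 at 0 hr. It rose with IL-2 in both genotypes, by 2.53 in WT and 1.64 in KI cells on the log2 scale. *Txk*, a TEC-family kinase of T cell receptor signalling, was at 82.1, 84.5, and 86.1 in WT and 43.1, 45.2, and 40.1 in KI cells. *Lyst*, the lysosomal trafficking gene mutated in beige mice, was at 52.0, 49.3, and 47.4 in WT and 22.5, 28.4, and 22 in KI cells. Its difference from 0 hr was called (-1.30, edgeR adjusted p = 0.00322), and it was not called at 24 hr (0.02). *2810474O19Rik* was at 69.7, 58.6, and 63.4 in WT and 25.9, 24.7, and 24.8 in KI cells, with a difference from 0 hr of -1.01 (adjusted p = 0.013). In each of these 4 genes the WT and KI libraries did not overlap at 4 hr, as was so for 52.9% of all genes tested. *Atn1*, which encodes the transcriptional corepressor atrophin 1, was among the 13 that were lower at 0 hr too, by -1.22 at 4 hr and -1.39 at 0 hr.

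Growth, metabolism, and quiescence genes had few calls at 4 hr. None of 27 ribosome biogenesis genes, 26 genes of glycolysis and of one-carbon and nucleotide synthesis, or 16 quiescence and homing genes was called in either direction. All 27 ribosome biogenesis genes had a value below 0, with a median log2 difference of -0.36. Among all genes 53.3% were below 0, and among the 8049 with a mean RPKM of at least 5, 73.1% were, with a median of -0.11. Scaled by library totals, 22 of the 27 were below 0 and the median was -0.20. By adjusted p alone, with no fold threshold, 20 of them were lower, where 12.8% of all genes were. Of 14 nutrient transporters 2 were higher, *Slc16a3* and *Slc43a1*, a share near the 9.2% of all genes, and 2 members were higher at 0 hr. Of 18 genes of sterol and fatty acid synthesis only *Scd1* was called, at 2.53, 2.36, and 2.92 in WT and 11.4, 12.4, and 10.8 in KI cells. It was higher at 0 hr as well (1.81). By adjusted p alone 13 of the 18 were higher and none lower, where 14.5% of all genes were higher, and the median log2 difference was 0.41. Interferon-stimulated genes included 5 of 15 that were higher, beside 9.2% of all genes: *Rsad2* (2.63), *Ifi44* (1.94), *Isg15* (1.10), *Mx1* (1.06), and *Ifit1*. The summed RPKM of the 15 was lowest in WT replicate 1 (98.1), but WT replicate 3, at 150, was level with the highest KI library. Their median log2 difference was 0.30 with WT replicate 3 and 0.82 without it. *Rsad2* was at 0.159, 0.207, and 0.345 in WT and 1.99, 1.01, and 1.73 in KI cells, and none of the 15 differed in its genotype effect from 0 hr.

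**Figure D4:**
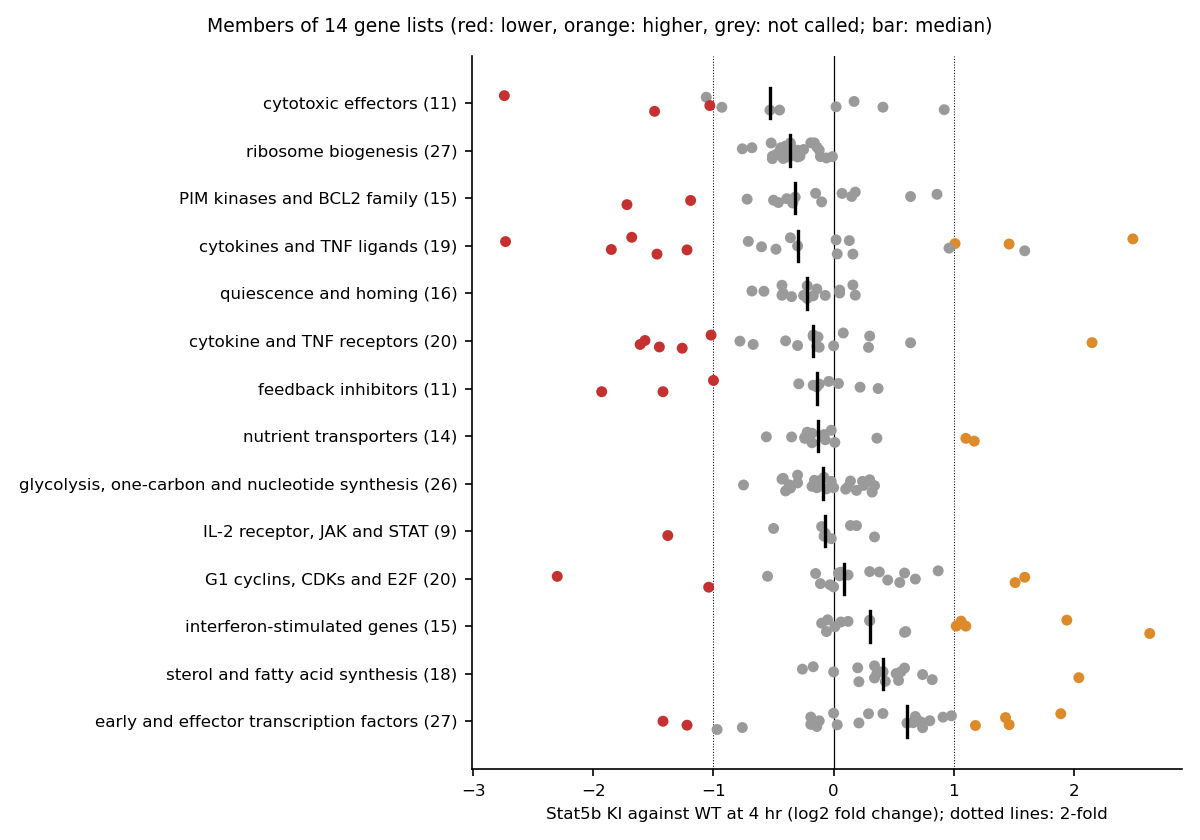
Log2 difference of KI and WT cells at 4 hr for the members of 14 gene lists, with 1 point per gene and the list median marked. Cytokines, receptors, feedback inhibitors, and cytotoxic effectors held called genes below 0, whereas the 27 ribosome biogenesis genes lay in a narrow band with a median of -0.36 and none called.

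The 61 genes lower in KI cells both with and without IL-2 included 13 of the 78 early IL-2 genes, such as *Syt6*, *Kcnj8*, and *Bcl2*. They were led by natural killer receptors of the *Klr* families, a group chosen after the values were seen. Of 36 *Klr* genes tested, 19 were lower at 4 hr, 20 at 0 hr, and 18 at both times, beside 1.23% and 0.604% of all genes lower at 4 hr and 0 hr. *Klra17* (1.27) and *Klrb1f* (1.01) were higher at 4 hr, and the median log2 difference was -1.33 at 4 hr and -1.40 at 0 hr. *Klra7*, an inhibitory Ly49 receptor, was at 15.2, 21.9, and 10.3 in WT and 2.27, 1.85, and 1.29 in KI cells at 4 hr, and at 12.4, 16.1, and 9.92 against 1.83, 1.79, and 2.11 at 0 hr. The 2 genotypes differed by about as much at either time, and the difference from 0 hr was -0.44 (adjusted p = 0.935). *Klra23* and *Klra13-ps* had a log2 difference of -3.51 and *Klra12* one of -3.29. *Klra* genes are close paralogs and can share reads, so the values of single members are uncertain. *Klrk1*, which encodes NKG2D, was lower by -1.33 at 4 hr. Of 10 markers of memory-phenotype CD8+ T cells, *Il2rb* and *Klrk1* were lower, beside 1.23% of all genes. The summed RPKM of the 10 was 869, 1100, and 913 in WT and 692, 643, and 610 in KI libraries, with *Ccl5* the most abundant. *Cd44* and *Eomes* of the same list had values of 0.73 and 0.71 (edgeR adjusted p = 0.000225 and 0.00351), below the fold threshold, with every KI library above the WT libraries. *Ly6c1*, *Ly6c2*, and *Ccl5* had values of -0.72, -0.79, and -0.71 (edgeR adjusted p = 0.000505, 0.0102, and 0.0493), also below it. By adjusted p alone, 5 of the 10 were thus lower and 2 higher, where 12.8% and 14.5% of all genes were. Among 7 NK cell markers *Klrb1c*, *Klre1*, and *Klra9* were lower and *Tyrobp* was higher, beside 1.23% and 9.2% of all genes. The sum of the 7 was 29.8, 38.6, and 38.2 in WT and 51.9, 44.3, and 44.6 in KI libraries. *Tyrobp*, which myeloid cells also express, made up most of the KI sum, and without it the other 6 summed to 15.3, 25, and 17.2 in WT and 7.63, 6.38, and 4.71 in KI libraries. Among 7 naive markers *Dapl1* and *Igfbp4* were lower, beside 1.23% of all genes. The sum of the 7 was 1300, 1260, and 1330 in WT and 1300, 1250, and 1190 in KI libraries. The part of these shifts in the *Klr* values, and in those of the early IL-2 genes, was not tested.

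Genes that were higher in KI cells included markers of other spleen cells. All 11 B cell markers were higher, with a median log2 difference of 2.02 and *Cd79a*, part of the B cell antigen receptor, as the most abundant. Of 13 macrophage markers 12 were higher (median 2.24), led in level by *Hmox1*, and all 8 erythroid markers were higher (median 3.28), led by the globin gene *Hbb-bs*. Of 7 neutrophil markers tested 6 were higher, of 7 dendritic cell markers 3, of 6 markers of CD4 T cells and Treg cells only *Cd4*, of 6 stromal and endothelial markers 2, and of 5 platelet markers none, beside 9.2% of all genes. By adjusted p alone, all 7 dendritic cell markers (median 0.95) and 5 of the 6 markers of CD4 T cells and Treg cells (median 0.76) were higher, where 14.5% of all genes were. None of the B cell, macrophage, or erythroid markers differed in its genotype effect between 4 hr and 0 hr, and the medians of that difference were 0.07, 0.05, and -0.05. Of the dendritic cell markers, *Ccr9* was called with a higher genotype effect at 4 hr than at 0 hr (1.14, edgeR adjusted p = 0.000306). The genes with the largest rise included *Fcamr*, *Postn*, *Slc4a1*, *Cxcl13*, *Cfb*, *Slpi*, *Tmcc2*, *Alas2*, and *Clu*, of which *Slc4a1* and *Alas2* are erythroid genes. *Slpi*, a secreted protease inhibitor, was at 3.24, 3.07, and 4.27 in WT and 38.0, 44.8, and 55.9 in KI cells at 4 hr and was as different at 0 hr (3.61 and 3.15 on the log2 scale). *Fcamr*, a receptor for IgM and IgA, had the largest of these values, 4.77, at an RPKM of at most 1.68 at 4 hr.

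Of the 89 early IL-2 genes that were higher in KI cells, 34 were higher at 0 hr too, and none was called as different in its genotype effect from 0 hr. With libraries of the same number treated as pairs within each genotype, 1 of the 89 was, *Mmp19* (1.82, edgeR adjusted p = 0.0429). The largest rises were in *Mmp19* (2.93), *Il1rn* (2.31), *Slc6a9* (1.87), *Pcsk1* (1.86), and *Asns* (1.83), all of low level. *Mmp19*, a matrix metalloproteinase, was at 0.487, 0.381, and 0.359 in WT and 4.37, 2.67, and 3.10 in KI cells. Of 1767 genes lower at 4 hr than at 0 hr in *Stat5a*-line WT cells, 475 were higher in KI cells (26.9%, beside 9.2% of all genes) and 19 lower (1.08%). Their median log2 difference was 0.60. Without IL-2, 385 of them were already higher in KI cells, with a median of 0.41. The genotype effect was called higher at 4 hr than at 0 hr for 6 of them and lower for 7, beside 0.0964% and 0.514% of all genes.

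At 24 hr the genotype difference was larger. At that time 898 genes were lower (5.77%) and 1698 higher (10.9%), and at 48 hr 1527 (9.81%) and 2564 (16.5%). Of the 78 early IL-2 genes lower at 4 hr, 43 were lower at 24 hr and 39 at 48 hr, with medians of -1.13 and -1.07. The direct test of 24 hr against 4 hr called 829 genes with a lower genotype effect at 24 hr (5.33%) and 282 with a higher one (1.81%). *Gzmb* differed by -4.06 at 24 hr, *Lta* by -3.58, *Il12rb2* by -2.70, *Cdk6* by -2.40, *Cish* by -2.32, and *Myc* by -1.38. Some lists without calls at 4 hr held them at 24 hr: 18 of 26 genes of glycolysis and of one-carbon and nucleotide synthesis were lower, and 13 of 27 ribosome biogenesis genes. None of the 16 quiescence and homing genes was called at 24 hr. *Npm1*, a nucleolar chaperone, was at 502, 496, and 537 in WT and 458, 564, and 431 in KI cells at 4 hr (-0.19, not called) and differed by -1.17 at 24 hr. Interferon-stimulated genes, of which 5 were higher at 4 hr, held 5 that were lower at 24 hr. For some early genes the difference was smaller by 48 hr: *Ecm1* differed by -1.17 at 24 hr and 0.04 at 48 hr, and *Tnfsf8* by -0.66 and 0.02. For others that were higher at 4 hr the sign turned: *Asns*, which encodes asparagine synthetase, differed by 1.83 at 4 hr and -2.42 at 24 hr, and *Mycn* by 1.89 and -4.60. The 4 hr call of *Mycn*, a gene of very low level at that time, was lost in 5 alternative settings at values of 0.09 to 1.92, among them the fits without WT replicate 2 (1.48) and without KI replicate 2 (1.57).

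**Figure D5:**
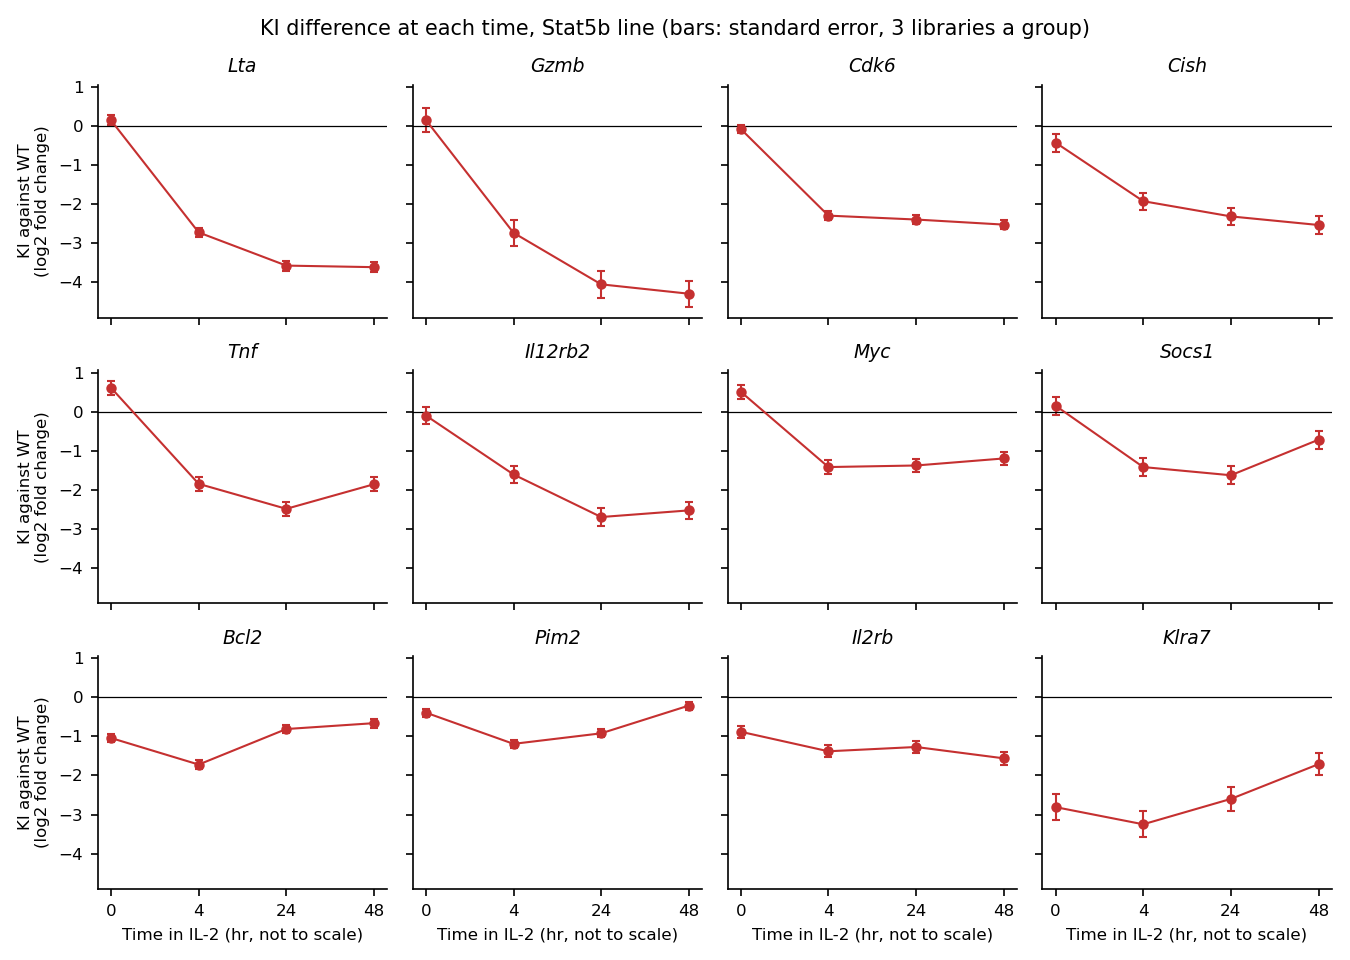
Log2 difference of *Stat5b* KI and WT cells at 0, 4, 24, and 48 hr for 12 genes, with bars of 1 SE from the edgeR fit (3 libraries per group). *Lta*, *Cdk6*, and *Gzmb* were near 0 at 0 hr and negative from 4 hr on, *Cish* went from -0.43 at 0 hr to -1.93 at 4 hr, whereas *Klra7* was negative at every time.

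The *Stat5a* KI line, in which tyrosine 694 of STAT5A is changed, gave the other side of the pair. In that line the 4 hr comparison called 648 genes as lower (4.16%) and 384 as higher (2.47%) with the mutation, with 2 KI libraries and the WT library of few assigned reads in that contrast. Of the 78 early IL-2 genes, 20 were lower there, with a median of -0.75, beside 411 of all 1563 early IL-2 genes, with a median of -0.48. The same WT libraries at 4 hr had chosen the early IL-2 genes, which favours lower KI values in this line, so nothing is read from these counts. The test of the difference between the lines called 61 genes lower in the *Stat5b* line (0.392%) and 674 higher (4.33%). These counts rested on that WT library. Without it they were 40 and 51, and with all 48 libraries in the fit, the *Stat5a* KI library of 1028515 reads included, they were 529 and 63. Genes whose larger fall in the *Stat5b* line was called with and without the WT library included *Lta*, *Cish*, *Socs1*, *Gzmb*, *Tnf*, *Il12rb2*, *Pim2*, and *Gpr34*. Without it, *Socs1* had a log2 difference of -0.20 in *Stat5a* KI cells, *Pim2* one of -0.15, and *Il12rb2* one of -0.27, none of them called. *Cdk6* was lower in *Stat5a* KI cells as well, by -1.53 without that library (edgeR adjusted p = 6e-10). Its difference between the lines was -0.77 (edgeR adjusted p = 0.00752), not called because it was below the fold threshold. *Myc* differed by -0.77 there, below the fold threshold, and its difference between the lines of -0.64 was not called (adjusted p = 0.157).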

How the data were processed

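Per the labels and the study's methods, RNA of splenic CD8+ T cells was made into libraries with a poly(A) kit, sequenced as 50 bp single-end reads, and aligned to mm10 with TopHat 2.0.11; the processing notes also name Bowtie2 2.2.6, SAMtools 0.1.8, bedtools 2.25.0, and edgeR. The authors deposited a read count and an RPKM for each of 31682 RefSeq transcripts in each library. The counting program and its strand setting are not given in the sources used here. For each of 23992 symbols the longest transcript was kept. Counts were fitted with edgeR 4.0.16 (TMM, filterByExpr with a minimum count of 10, quasi-likelihood test) in R 4.3.3, with 1 mean per group over 47 libraries and Benjamini-Hochberg adjustment over the 15566 genes tested. RPKM values, as deposited, describe levels. Limma 3.58.1 and DESeq2 1.42.0 served as alternatives. *Stat5a* KI replicate 3 at 4 hr was left out because 1028515 reads, 5.68% of its mapped reads, were in the table. On simulated data, 100% of 200 genes changed 4-fold were recovered among 15682, with 1 unchanged gene called. Recovery of changes smaller than 4-fold was not tested, although calls were made from 2-fold on.

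Members and gene lists were chosen with earlier results of these data known. Genes were named by this rule: members of the lists that were called, by fold, up to 4, and otherwise the most abundant; *Stat5a* and *Stat5b*; the 10 largest falls and rises, and the 10 largest falls and 5 largest rises among early IL-2 genes, of genes whose KI and WT libraries did not overlap and whose mean RPKM was at least 1 in a group. One gene that the rule selects is not reported here. Other names were chosen after their values were seen. Labels do not say whether libraries of a group came from separate mice, so p-values measure the spread between these libraries, which may be technical. No 2 libraries of a group were alike within counting noise: their chi-square per degree of freedom was 8.24 to 18.0. Counting 38484769 to 46972324 reads per library limits precision only for genes of low level. Library numbers did not pair WT with KI cells at 4 hr: the correlations of deviations from the group means were 0.02, -0.25, and -0.19. Within a genotype they paired 0 hr with 4 hr (0.18, 0.43, and 0.14 in KI and 0.30, 0.15, and 0.30 in WT cells). The ChIP-seq sample was not analysed here.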

Additional observations from a re-analysis of the deposited data

Results flagged for a closer look

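The genotype effect differed between 4 hr and 0 hr, by the edgeR test of the difference itself, for 80 genes that were lower and 15 that were higher at 4 hr. Among named genes the log2 difference was -2.87 for *Lta*, -2.46 for *Tnf*, -2.23 for *Cdk6*, -2.89 for *Gzmb*, -1.93 for *Myc*, -1.57 for *Socs1*, -1.52 for *Il12rb2*, and -1.51 for *Cish*. It was -4.51 for *D630039A03Rik*, -3.81 for *Fam19a3*, -2.70 for *Gpr34*, and -1.82 for *Tmem37*. Without KI replicate 2 at 0 hr it was -3.16 for *D630039A03Rik* and, no longer called, -1.78 for *Fam19a3* (edgeR adjusted p = 0.453). The call for *Tmem37* was lost in 8 of the 12 fits that left out 1 library, at -1.61 to -1.81.

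Between 24 hr and 4 hr the genotype effect differed for 829 genes that were lower and 282 that were higher at 24 hr. Named genes with a lower effect at 24 hr were *Gzmb* (-1.33), *Gzmc* (-1.93), and *Il12rb2* (-1.09), already lower at 4 hr. Others were higher in KI cells at 4 hr, namely *Mycn* (-6.50), *Asns* (-4.25), *Cfb* (-3.92), *Ifi44* (-3.04), *Slc6a9* (-2.60), *Rsad2* (-2.13), *Isg15* (-2.10), *E2f2* (-2.09), *Zbtb32* (-2.05), and *Slc16a3* (-1.32), and *Gapdh* (-1.34) was not called at 4 hr. Named genes with a higher effect were *Drc1* (1.46) and *Kcnj8* (1.08), whose difference was smaller at 24 hr.

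Between the *Stat5b* and the *Stat5a* line the genotype effect at 4 hr differed for 61 genes that were lower and 674 that were higher in the *Stat5b* line, counts that fell to 40 and 51 without replicate 2 of the *Stat5a*-line WT libraries. With that library, the log2 difference was -1.75 for *Lta*, -1.72 for *Cish*, -1.59 for *Socs1*, -1.87 for *Gzmb*, -1.52 for *Tnf*, -1.04 for *Il12rb2*, -1.20 for *Pim2*, -2.08 for *Gpr34*, -1.94 for *Syt6*, -2.34 for *Tmem37*, -1.63 for *Kcnj8*, -2.70 for *Drc1*, and -2.23 for *4933440M02Rik*. For the *Klr* genes it was -2.06 for *Klra7*, -2.01 for *Klra12*, -2.12 for *Klra13-ps*, and -2.10 for *Klra23*, and it was 5.64 for *Postn* and 1.41 for *Pcsk1*. All of these were also called without it. The values for *Bcl2* (-1.06), *Il18rap* (-1.05), *Mir6974* (-2.63), and *Clu* (2.26) were not: without it they were -0.97 (edgeR adjusted p = 0.000845, under the fold threshold), -0.89 (0.0389, likewise), -2.60 (0.0641), and 1.83 (0.0639). Groups of 3 libraries were too small to be searched for outlying libraries.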

How the results depend on the processing

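Limits. With 3 libraries per group, the tests rest on the spread shared over 47 libraries, and single genes of low level are least certain. B cell, macrophage, and erythroid RNA was higher in KI libraries at both times. Strand was not known, so reads of overlapping annotations, such as *Gpr34* with *Cask* or *Slc16a3* with *Csnk1d*, cannot be told apart, and paralogs share reads. Scaling by library totals in place of TMM moved the median log2 difference of all genes from -0.026 to 0.134, and with it (a choice made after the data were seen) 0.912% of genes were lower and 11.4% higher at 4 hr, 72 of 1944 early IL-2 genes so defined were lower, and 65 genes were lower and 19 higher against 0 hr.

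The replicate block, which treats libraries of the same number as pairs, gave 197 genes lower and 1481 higher at 4 hr, 78 early IL-2 genes lower, and 81 and 20 genes lower and higher against 0 hr. It moved none of these counts by over 1.5 times. Pairing within a genotype, added after the data were seen, gave 99 and 30 genes against 0 hr. Leaving out 1 library of the comparison at a time gave 168 to 189 genes lower and 1160 to 1344 higher at 4 hr, 75 to 82 early IL-2 genes lower, and 58 to 75 lower and 10 to 20 higher against 0 hr. Without replicate 2 of the *Stat5a*-line WT libraries, the comparison between the lines gave 40 lower and 51 higher, and with all 48 libraries 529 and 63, while the test against 0 hr then gave 32 and 8. With the 24 libraries of the *Stat5b* line the latter gave 45 higher, and with the libraries compared alone 38. A filter that kept genes at an RPKM of 5 or more gave 60 lower, 254 higher, 33 early IL-2 genes lower, and 40 and 6 against 0 hr. Limma on log2(RPKM + 1) gave 68, 311, 31, 44, and 4 for the same counts, and on log2(RPKM + 0.1) 1.1e+02 lower (0.954% of genes), 782 higher, and 47 and 8 against 0 hr. With no fold threshold there were 1990 lower and 2262 higher genes, 215 early IL-2 genes lower, and 226 and 84 against 0 hr. The cause of these shifts was not tested, beyond fewer genes or another threshold where the setting itself sets it. None of the 60 named genes called at 4 hr turned its sign in any setting, and of the other 5, *Stat5b* did (-0.10 to 0.09). Calls were lost in 15 settings for *Socs3*, in 8 each for *Gzmc* and *Gzmm*, in 7 for *Ccnd2*, and in 5 each for *Ifi44* and *Mycn*.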

Other observations

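*Stat5b* and the mutated site lie on chromosome 11, and the founder zygotes were a cross of strains before the backcross, so genes near the site were looked at apart. Within 10 Mb of *Stat5b*, 279 genes were tested, of which 4 were lower (*D030028A08Rik*, *Fam20a*, *Igfbp4*, and *Tbx21*) and 25 higher at 4 hr, with a median log2 difference of -0.02. These counts are near the shares of all genes tested, 1.23% lower and 9.2% higher.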
